A study of Rattus norvegicus with 11 samples.

Results

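The genes described here encode the protein subunits of the cytosolic ribosome. They were chosen by name, as the rows whose symbol starts with Rpl or Rps and a digit, the stalk genes Rplp0, Rplp1 and Rplp2, and Rpsa, without the Rps6k kinase genes. The rule found 85 of 17257 rows, and all 85 had a mean above 0. Of these, 77 were canonical subunit genes, 46 of the large and 31 of the small subunit. The other 8 were the paralogues Rpl3l, Rpl22l1, Rpl36al, Rpl39l, Rps27l and Rps4y2, a pseudogene (Rpl37a-ps1), and Rps19bp1, which encodes a binding partner of a subunit and is itself no subunit.

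The animals were wild-type Sprague Dawley rats aged 3 to 4 months, 6 males and 5 females, with no treatment in either group. Ventricular myocytes, the contractile cells of the heart's main chambers, were released by Langendorff perfusion, plated for 45 minutes and frozen. From 650 ng of total RNA per sample (integrity number 9 or more), ribosomal RNA was removed and stranded paired-end libraries were prepared. The comparison was female against male, and the labels count each library as a biological replicate.

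A cytosolic ribosome has a large subunit, which joins amino acids, and a small subunit, which reads the mRNA. Each holds a single copy of nearly all its proteins, so their genes are usually expressed together and at a high level. Many of their mRNAs begin with a run of pyrimidines that lets mTOR signalling, through factors such as Larp1, hold back or release their translation. The heart and skeletal muscle also express Rpl3l, a muscle form of the large subunit protein Rpl3.

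For most genes the data give a mean normalized count for each sex, with a fold change and a p-value from DESeq, and no value per library. Size factors, which the digits of the means gave away, were 0.811 to 1.17 in males and 0.972 to 1.14 in females. Whole reads per library could be recovered only for low means, in all 11 libraries for 4728 genes. In these genes the libraries held from 63903 to 91681 reads, and the full depth of a library was not known. Female library b stood apart from the others of its sex: 164 genes had a single female read that fell in it, against 9 to 24 genes in each of the other 4.

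The bases around the start of the mRNA are shown for 12 members, because a pyrimidine run at the start is how these genes are usually recognised. Each line gives 15 bases before and 15 from the RefSeq start on the assembly GRCr8, 5′ to 3′ on the gene's strand, and the position stands after the sequence. Within the stretch from 10 bases before to 15 bases after the start, and not outside it, capitals mark the motif CTCTT, the motif CTTTC, the motif CTTTT, the motif CCTTT and the motif CTTCC, which overlap each other. The first 7 lines are genes called higher in females, the next 3 are genes with lower female means that missed the threshold, and the last 2 are Rpl3 and its muscle paralogue.
Rps14: cccttccgtctctCTCTTTCcggtggagga (chr18:56498245-56498274, plus strand).
Rps15: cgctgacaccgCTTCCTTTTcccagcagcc (chr7:10068101-10068130, minus strand).
Rps27: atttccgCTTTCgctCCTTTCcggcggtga (chr2:177964592-177964621, minus strand).
Rpl13: ctttgcggtgcccgatCCTTTCcgctcggc (chr19:68062499-68062528, plus strand).
Rpl28: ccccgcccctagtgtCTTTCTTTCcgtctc (chr1:78083518-78083547, minus strand).
Rpl36: ctgtccggccgccatcggaaagctgcaggt (chr9:1533765-1533794, plus strand).
Rplp0: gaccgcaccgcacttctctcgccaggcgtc (chr12:46718376-46718405, minus strand).
Rps3a: gagttgtaCTTCCgcCCTTTTggctctcag (chr2:173827028-173827057, minus strand).
Rps24: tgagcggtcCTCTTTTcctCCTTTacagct (chr16:96502-96531, plus strand).
Rpl5: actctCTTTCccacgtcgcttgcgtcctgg (chr14:1995211-1995240, minus strand).
Rpl3: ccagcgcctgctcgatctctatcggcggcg (chr7:113507976-113508005, minus strand).
Rpl3l: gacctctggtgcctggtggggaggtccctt (chr10:14258431-14258460, plus strand).

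Marked motifs stood on both sides of the comparison. They are in the lines of Rps14, Rps15 and Rpl13, whose female means were higher. They are also in those of Rps3a, Rps24 and Rpl5, whose female means were lower. In the Rpl5 line the only motif lies before the RefSeq start, outside an mRNA that begins there. Of the 85 members, 67 matched an entry of the RefSeq table of starts, 62 of them canonical. One of the 5 motifs lay between 10 bases before and 15 bases after the start in 41 of the 62 canonical genes, which is 66.1%, against 14.0% of all 27457 genes with a window. On the opposite strand the shares were 4.84% and 15.7%. The 41 genes with a motif had a median log2 fold change (female over male) of -0.02, with 20 values above 0 and 21 below. The 21 without a motif had a median of 0.08, with 14 above and 7 below. Among these 62 genes, 5 with a motif and 2 without one were called higher in females, and 0 were called lower. The 1 member called lower matched no entry, so the 0 was set by the matching. Some of the 9 members called higher matched none either. Over all measured genes, 6.71% were called higher and 7.76% lower. A gene without a motif can still hold a pyrimidine run. The line of Rplp0 has such a run across its start that matches none of the 5 motifs. A match describes these letters only, and the start used in these cells was not measured.

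The summed level of ribosomal protein mRNAs differed little between the sexes. The summed means of the 85 rows were 556918 normalized counts in males and 571337 in females, a log2 ratio of 0.04. Per the authors' deposited table the log2 fold change of 77 of the 84 rows with a defined value lay between -0.5 and 0.5. The median was 0.05, with quartiles of -0.17 and 0.26, and 47 rows were above 0 and 38 below. Over all measured genes the median was -0.01 and the quartiles were -0.36 and 0.31, a wider spread. Among 3573 genes at a mean of 1000 or more, where most members lie, the median was -0.02 and the quartiles were -0.30 and 0.24.

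At a DESeq adjusted p under 0.05 per the authors' deposited table, 10 members differed between the sexes. Of these, 9 were higher in females, among them Rps14, Rps15, Rps27, Rplp0, Rpl13, Rpl36 and Rpl28, and 1 was lower. As shares of the 85 rows, 11.8% were called, 10.6% higher and 1.18% lower. Over all 13346 measured genes, 14.5% were called, 6.71% higher and 7.76% lower. Ribosomal protein genes are highly expressed, and at a mean of at least 1000 the share called was 27.1% of all genes and 14.5% of the 69 members. An unadjusted p under 0.05 was reached by 26 members, 16 of them higher in females and 10 lower.

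The split into 9 higher and 1 lower depended on how the sexes were scaled to each other. When the rows with a gene symbol were given equal sums in both sexes, a log2 shift of 0.06, 4 members were called higher and 7 lower, beside 672 and 1492 of all genes. When all rows were given equal sums, a shift of -0.15, 23 were called higher and 0 lower, beside 1915 and 462 of all genes. Centring on the median gene left 9 higher and 1 lower. These calls used an approximate z from the authors' p, and the scalings were chosen after the data were seen. With the authors' own size factors the same z gave 9 higher and 2 lower. The scalings differ by 37 rows without a gene symbol. Ribosomal protein rows made up 0.887% of all summed means in males and 1.01% in females, but 2.09% in males and 2.05% in females of the rows with a symbol.

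**Figure D1:**
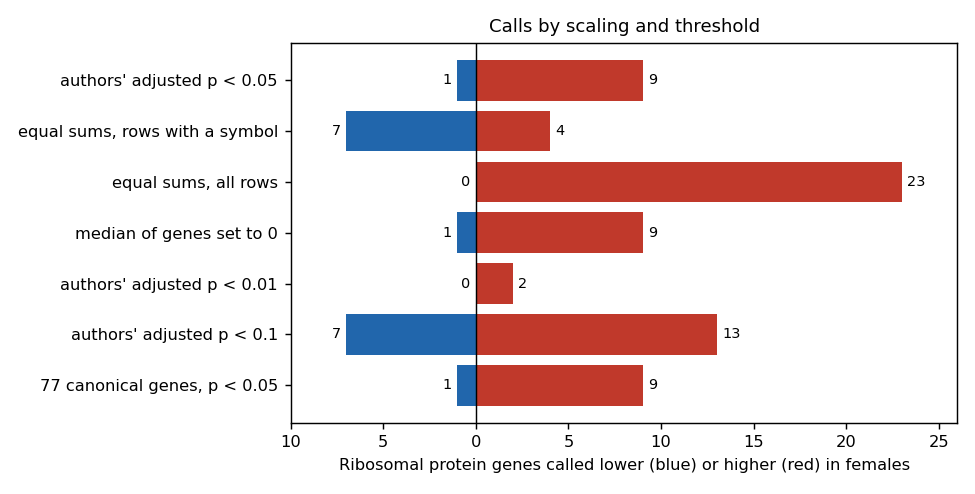
Number of ribosomal protein genes called lower (blue, to the left) or higher (red, to the right) in females under each scaling, threshold or gene set. The authors' values give 9 higher and 1 lower, equal sums of rows with a symbol give 4 and 7, and equal sums of all rows give 23 and 0.

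The large and the small subunit were set side by side by their counts and medians. Of 50 large subunit genes, paralogues included, 5 were called higher and 0 lower, 28 log2 fold changes were above 0 and 22 below, and the median was 0.05 with quartiles of -0.15 and 0.27. Of 33 small subunit genes, 4 were called higher and 1 lower, 18 were above 0 and 15 below, and the median was 0.08 with quartiles of -0.17 and 0.24. That is 10.0% of the large and 15.2% of the small subunit genes called, beside 14.5% of all measured genes. At a mean of at least 1000, reached by 43 of the 50 and 26 of the 33, the share of all genes was 27.1%. Over the canonical genes alone the medians were 0.05 for 46 large and 0.11 for 31 small subunit genes. The log2 ratio of the summed means was 0.05 for the large and 0.02 for the small subunit. With equal sums of rows with a symbol, the medians were -0.01 for the large and 0.02 for the small subunit. The difference between the subunits was not tested.

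**Figure D2:**
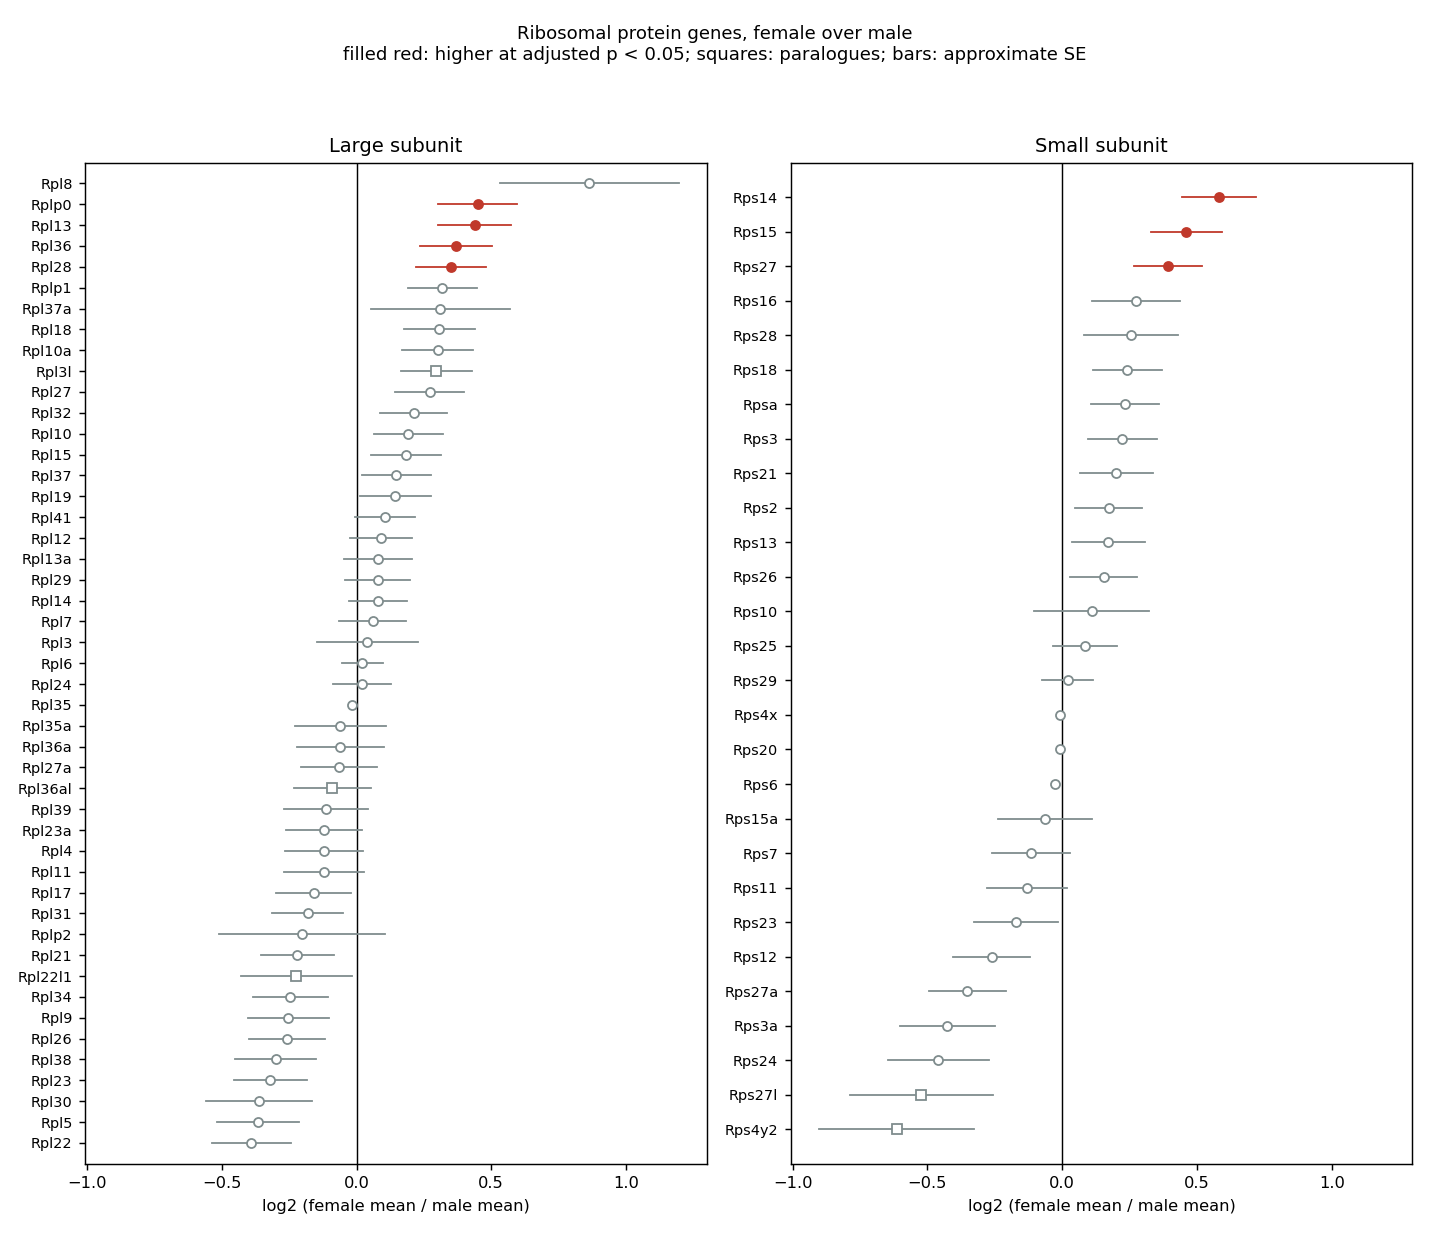
The log2 fold change (female over male) of 75 subunit genes with a mean of at least 50, ordered by value within each subunit. Bars are approximate SEs from the authors' p and are missing for 4 genes with a p of at least 0.9. Rps9 and 4 genes not reported here are left out. Filled red points are called higher. Both subunits spread on either side of 0.

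Each canonical gene was set beside the others only by its fold change, since transcript lengths were not given and levels between genes are comparable only per length. Some of the members with the highest means illustrate the range of fold changes at high counts. Rps4x, an X-linked gene of the small subunit, had 26145 normalized counts in males and 26010 in females (log2 fold change -0.01). Rps3a, a small subunit protein, had 23230 and 17281 per the authors' deposited table (log2 fold change -0.43, adjusted p 0.0817 by DESeq). Rpl11, Rpl23a and Rpl4 of the large subunit each had a log2 fold change of -0.12, and Rpl41 one of 0.10. Rpsa, which also serves as a laminin receptor, had 0.23. Of the genes listed so far in this paragraph, none passed the threshold by DESeq, and only Rps3a had an unadjusted p under 0.05. That does not hold for all members with high means. Rplp0, at an overall mean of 14452, was called higher in females (DESeq adjusted p 0.0218 per the authors' deposited table).

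**Figure D3:**
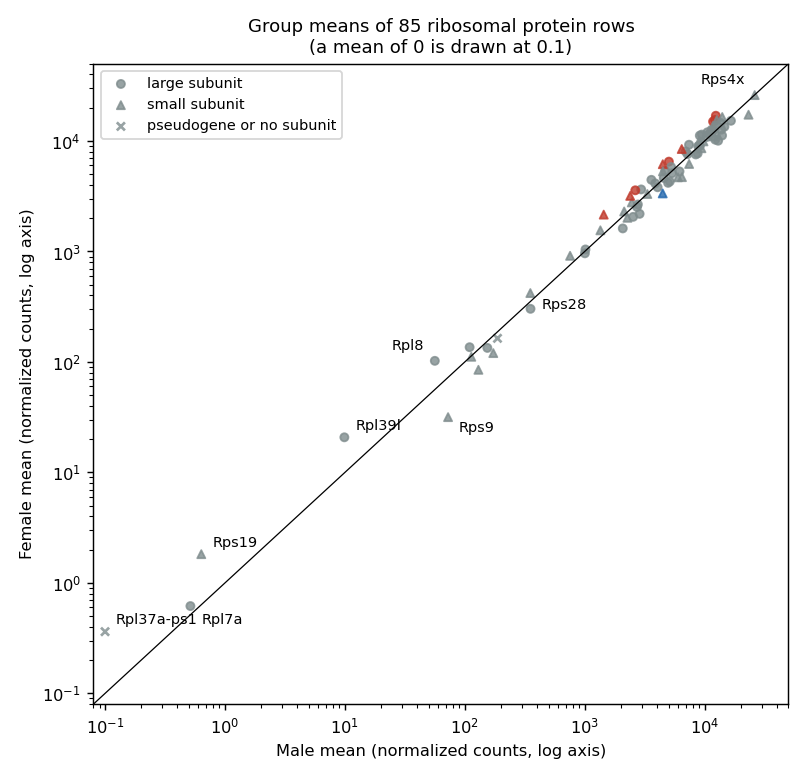
Female against male mean of all 85 rows in normalized counts, both axes logarithmic, with the line of equal means. Points are circles for the large subunit, triangles for the small subunit and crosses for the 2 rows that are no subunit gene. Red marks genes called higher in females and blue the one called lower. Most members lie above 1000 near the line, and 14 rows lie below 500.

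In the large subunit 5 genes passed the threshold, all higher in females. Rplp0, the base of the stalk that recruits elongation factors, had a male mean of 12396 and a female mean of 16921 per the authors' deposited table, with a log2 fold change of 0.45 (approximate SE 0.15, DESeq adjusted p 0.0218). Rpl13 went from 2640 to 3576, with a log2 fold change of 0.44 (approximate SE 0.14, DESeq adjusted p 0.0168) per the authors' deposited table. The log2 fold changes of Rpl36 and Rpl28 were smaller, at 0.37 and 0.35. Their DESeq adjusted p-values per the authors' deposited table, 0.0453 and 0.0464, lay just inside the threshold. Rpl36 went from 5034 in males to 6502 in females and Rpl28 from 11758 to 14994. Each of these 4 genes was therefore between 1.28 and 1.37 times as high in females.

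Of the 3 stalk proteins, Rplp0 alone passed the threshold. Rplp1, which binds Rplp0 as a dimer with Rplp2, went from 7412 in males to 9243 in females (log2 fold change 0.32, approximate SE 0.13, DESeq adjusted p 0.0730) per the authors' deposited table. Rplp2 was listed at 154 and 134, with a log2 fold change of -0.20 and an approximate SE of 0.31. Rpl5 and Rpl11 form a particle with the 5S ribosomal RNA, and outside the ribosome the particle binds Mdm2, the inhibitor of p53. Rpl5 had 12961 in males and 10051 in females, and Rpl11 had 16573 and 15230. Per the authors' deposited table the log2 fold changes were -0.37 and -0.12, with DESeq adjusted p-values of 0.0863 and 0.691.

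The remaining large subunit genes missed the threshold in both directions. Closest below it was Rpl22, an RNA-binding protein that the ribosome can do without, with 2869 in males and 2190 in females. Its log2 fold change per the authors' deposited table was -0.39 (approximate SE 0.15), and 0.0505, its DESeq adjusted p, lay just outside. Rpl23 had a log2 fold change of -0.32, and Rpl18 and Rpl10a had 0.31 and 0.30. Their DESeq adjusted p-values per the authors' deposited table were 0.0908, 0.0971 and 0.107. Rpl8, which lies near the peptidyl transferase centre, had the largest log2 fold change of the canonical large subunit genes, 0.86 with an approximate SE of 0.33, at a low mean. Its libraries are described separately.

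In the small subunit, 4 genes were higher in females and 1 was lower. Rps14, whose loss in humans is tied to the anemia of the 5q deletion, had the smallest adjusted p of all members. Per the authors' deposited table it went from 1440 in males to 2155, a log2 fold change of 0.58 (approximate SE 0.14, DESeq adjusted p 0.00143). Rps15, a protein near the decoding site, went from 4477 to 6160, a log2 fold change of 0.46 (DESeq adjusted p 0.00912) per the authors' deposited table. Rps27 had a log2 fold change of 0.39. It went from 6441 to 8451, with a DESeq adjusted p of 0.0217 per the authors' deposited table.

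Several small subunit genes had lower female means without passing. Rps24 went from 6470 in males to 4704, a log2 fold change of -0.46 (approximate SE 0.19, DESeq adjusted p 0.0789) per the authors' deposited table. Its approximate SE, like that of Rps3a, at 0.18, was larger than that of Rps14 or Rps15. Rps27a, whose product is made as a fusion with ubiquitin, had a log2 fold change of -0.35 and a DESeq adjusted p of 0.0754 per the authors' deposited table.

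Groups of subunit genes drawn up after the values were seen gave counts only. The 15 measured small subunit proteins shared by all domains of life had a median log2 fold change of 0.17, with 3 called higher and 0 lower (20% called). The 18 such proteins of the large subunit had a median of -0.04, with 1 called higher and 0 lower (5.56% called). The RefSeq table places 4 members on the X chromosome, and 0 of them were called: Rps4x had a log2 fold change of -0.01, Rpl10 of 0.19, Rpl36a of -0.06 and Rpl39 of -0.11. Without adjustment, 0 of these 4 had a p under 0.05. Over all measured genes, 14.5% were called, 6.71% higher in females. At a mean of at least 1000 the share called was 27.1%. Such means were reached by 13 of the 15, 17 of the 18 and all 4 X-linked genes. The groups were short and were not tested against these shares or against each other.

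Of the canonical genes, 8 were listed at an overall mean under 500: Rps28 at 383, Rplp2 at 145, Rpl37a at 122, Rps6 at 112, Rpl8 at 77.2, Rps9 at 53.9, Rps19 at 1.17 and Rpl7a at 0.562. The other 69 canonical genes had means above 500. Ribosomal protein genes have many near-identical processed copies in the genome, and reads that match several copies can be divided between them or dropped. RefSeq names at least 1 pseudogene with a -ps suffix for each of the 77 canonical genes, 896 in all, of which 1, Rpl37a-ps1, was a row of the table. Rps2 had the most, 36. The median was 12 such symbols for the 8 genes with low means and 11 for the other 69. For Rpl7a the number was 20, for Rps9 16, for Rps19 15 and for Rplp2 2. The sources used here do not say how reads with several matches were counted, so the level and the fold change of every member are uncertain to that extent, and the part of such copies in the low means was not tested.

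Reads per library could be recovered for the members with low means, and they show how far such rows can be read. Libraries carry letters in order of falling size factor within a sex, and values are reads divided by the size factor. Rpl8 had 58.0, 87.8, 40.0, 68.1, 31.7 and 51.8 normalized reads in male libraries a to f, and 109, 53.4, 120, 108 and 121 in female libraries a to e. Of the 5 female libraries, 4 lay above all 6 males, and female library b lay among the males. Males averaged 56.2 ± 20.1 (SD, n = 6) and females 102 ± 28.0 (SD, n = 5), with a two-sided exact permutation p = 0.0173. The smallest p such a test can give with 6 against 5 libraries is 0.00433. Reads were searched for male means up to 80 and female means up to 140. Among members near these limits, only those higher in females could therefore be tested. Across all 1901 genes with recovered reads and a mean of at least 10, limma gave a log2 fold change of 0.87 (SE 0.29) and an adjusted p of 0.160. The authors' deposited table gave a DESeq adjusted p of 0.0585, so Rpl8 passed neither adjusted threshold. Without female library b, the lowest of the females, the exact permutation p was 0.00952 and the limma adjusted p was 0.0588. With any other single library left out, the exact permutation p lay between 0.0238 and 0.0381. The limma adjusted p then lay between 0.146 and 0.271.

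Rps9, a protein of the mRNA entry channel, rested on 2 libraries. Male library f held 353 reads of it, 435 after scaling, and the other 5 male libraries held 0. Female library b held 170 reads, 154 after scaling, female library a held 5, and the other 3 held 0. A count of 0 allows up to 3 reads in a library. The means of 72.5 in males and 31.7 in females therefore described single libraries, and the two-sided exact permutation test over 6 and 5 libraries gave p = 1.0. Without male library f the female mean was higher in place of the male one.

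Rps19 and Rpl7a had between 0 and 6 reads in each library. Rps19, the gene most often mutated in Diamond-Blackfan anemia, had 4 reads in male library c and 10 reads in 3 female libraries. Rpl7a had 3 reads in all males and 3 in all females. For the pseudogene Rpl37a-ps1, 2 reads in female library b were all there were. The exact permutation p-values of these 3 rows were 0.455, 0.892 and 0.909 (two-sided, 6 male and 5 female libraries). No fold change is given for them, since the counts are at or near the floor.

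A further 2 canonical genes could be read in the female libraries only. Rps6, the small subunit protein that S6 kinases phosphorylate, had 156, 133, 93.8, 93.6 and 80.3 normalized reads in female libraries a to e. Its group means per the authors' deposited table were 113 in males and 111 in females. Rpl37a had 94.3, 137, 188, 97.7 and 164 in the female libraries, against a male mean of 110 and a female mean of 136 per the authors' deposited table. The female libraries of both genes thus spread on either side of the male mean.

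**Figure D4:**
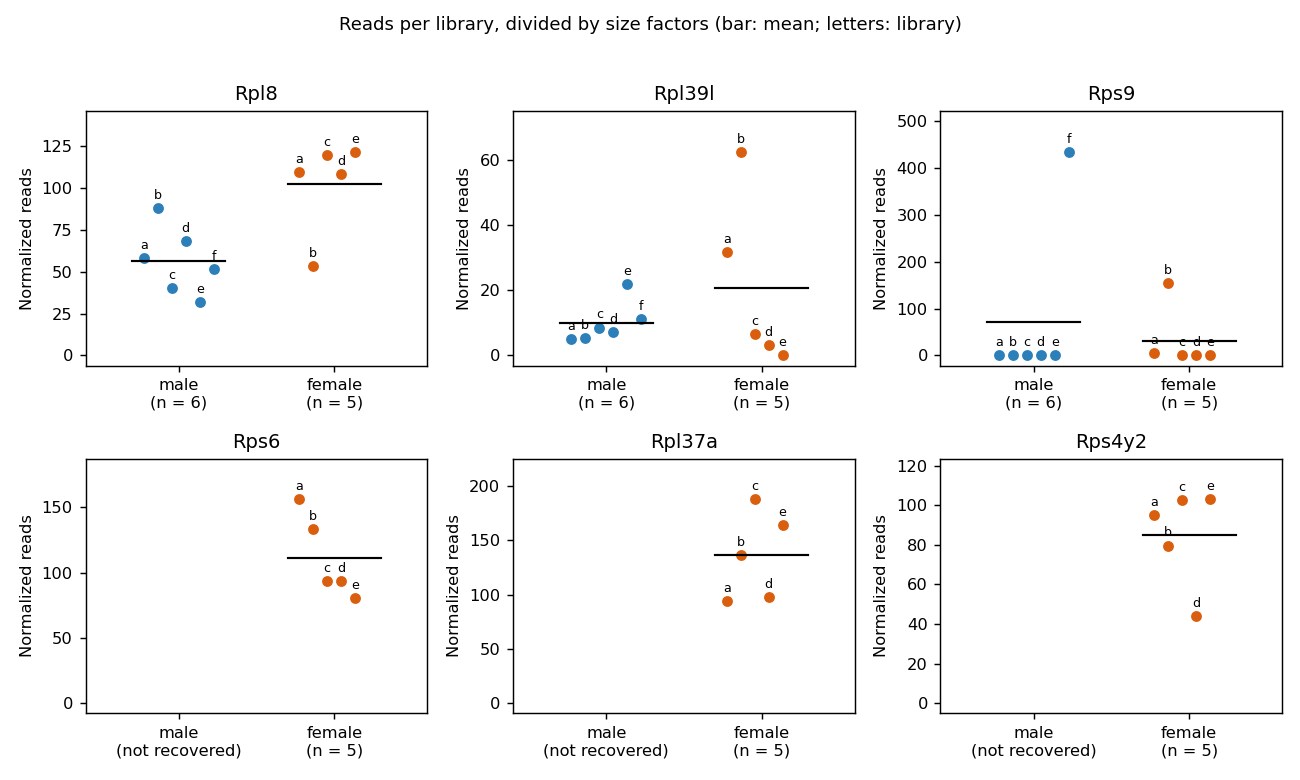
Normalized reads per library (vertical axis, from 0) of 6 members with recovered reads, with letters for libraries and a bar at the group mean. Male reads of Rps6, Rpl37a and Rps4y2 were not recovered. For Rpl8, 4 of 5 female libraries lie above all males, whereas Rps9 rests on male library f and female library b.

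Among the paralogue pairs, the muscle form Rpl3l had more counts than Rpl3 in both sexes. Rpl3l had 9113 normalized counts in males and 11193 in females, and Rpl3 had 1015 and 1043. The ratio of Rpl3l to Rpl3 was 8.98 in males and 10.7 in females (log2 difference 0.26, approximate SE 0.23). Counts were not divided by transcript length, so the ratio is not one of molecules, but its change between the sexes does not depend on length. Per the authors' deposited table Rpl3l itself had a log2 fold change of 0.30 (approximate SE 0.13, DESeq adjusted p 0.112). The difference between the sexes in this ratio was about 1 approximate SE.

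Rps27l, a small subunit paralogue that p53 induces, moved away from its partner. It had 173 in males and 120 in females per the authors' deposited table (log2 fold change -0.52, DESeq adjusted p 0.179), while Rps27 was called higher in females. The ratio of Rps27l to Rps27 was 0.0268 in males and 0.0142 in females. That is a log2 difference of -0.92, with an approximate SE of 0.29 that treats the genes as independent. No adjusted test was made of that difference, and Rps27 was among the genes picked out by its own call.

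Rps4y2, a relative of Rps4x that the RefSeq table does not place on the Y chromosome, was read in both sexes. Female libraries a to e held 95.1, 79.7, 102, 44.2 and 103 normalized reads of it, so all 5 had reads. Per the authors' deposited table its means were 130 in males and 84.9 in females (log2 fold change -0.61, approximate SE 0.29, DESeq adjusted p 0.139). Against Rps4x it was listed at a ratio of 0.00497 in males and 0.00326 in females. Reads that match both genes could be divided between the rows, so the values of Rps4y2 are uncertain.

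The other 3 pairs differed between the sexes by less than 2 approximate SEs. Rpl22l1, which can take the place of Rpl22, was listed at 0.123 of it in males and 0.138 in females, a log2 difference of 0.17 (approximate SE 0.25). Rpl36al stood at 1.46 and 1.43 times Rpl36a, a log2 difference of -0.03 (approximate SE 0.21). Rpl39l, known from the testis, was listed at 0.00363 and 0.00824 of Rpl39, a log2 difference of 1.18 (approximate SE 0.97). Its normalized reads were 5.11, 5.43, 8.57, 7.23, 22.0 and 11.1 in male libraries a to f and 31.7, 62.5, 6.70, 3.09 and 0 in female libraries a to e. The female libraries lay both above and below all males, at 20.8 ± 26.5 (SD, n = 5) against 9.90 ± 6.31 (SD, n = 6), with a two-sided exact permutation p = 0.442. The paralogues Rpl7l1, Rpl10l and Rpl26l1 were not analysed here. Rps19bp1 had 187 in males and 164 in females (log2 fold change -0.20, approximate SE 0.23).

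The 3 measured genes that complete the ribosome but carry other names had higher female means. Gnb2l1, the older name of Rack1, a signalling scaffold on the small subunit, had 7668 in males and 10548 in females per the authors' deposited table (log2 fold change 0.46, DESeq adjusted p 0.0106). Fau, the fusion gene of a small subunit protein, had a log2 fold change of 0.17 and was not called. Of the 3 genes measured in this list, 2 were called higher and 0 lower (66.7% called). Beside this stand 14.5% of all measured genes called, 6.71% higher in females. The share called was 27.1% among genes at a mean of at least 1000, where all 3 lie. So short a list was not tested against these shares.

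Lists of genes that build the ribosome or feed it are given beside the 14.5% of all measured genes that were called. At a mean of at least 100 that share was 21.8%. Of 111 measured ribosome biogenesis genes, 10 were higher and 3 lower in females, with a median log2 fold change of 0.07. That is 11.7% called and no more than either share. Higher were Pelp1 and Tcof1, at 0.82 and 0.59, and Urb1 at 0.65, and lower was Ncl, nucleolin, at -0.57. Their DESeq adjusted p-values per the authors' deposited table were 0.000591, 0.00478, 0.00813 and 0.00232. Of 10 genes that escort ribosomal proteins or import them into the nucleus, 0 were higher and 3 lower (30% called), with a median of -0.19. Called lower were 7.76% of all genes and 11.5% of those at a mean of at least 100, where all 10 lie. The 3 lower genes were the importers Ipo7 and Tnpo1 and the Rpl23 chaperone Bccip, at -0.67, -0.46 and -0.58 (DESeq adjusted p 0.0244, 0.0123 and 0.0231 per the authors' deposited table).

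Other mRNAs with a pyrimidine run, mostly of elongation and initiation factors, were called at about the rate of abundant genes. Of 16 measured, all with a mean of at least 1000, 3 were higher and 1 lower, and the median was -0.08. That is 25% called, beside 27.1% of all genes at such means. Eif3f, an initiation factor subunit, was higher at 0.83, Eef2, which moves the ribosome along the mRNA, at 0.50, and Eef1g at 0.36. Tpt1, a growth-related protein, was lower at -0.69. The 4 DESeq adjusted p-values per the authors' deposited table were 0.000573, 0.00425, 0.0402 and 0.00266. Eef1a2, the elongation factor form of adult muscle, went from 44740 in males to 73181 in females (log2 fold change 0.71, DESeq adjusted p 0.0101) per the authors' deposited table. Eef2k, the kinase that inhibits Eef2, had a log2 fold change of 0.26 and was not called.

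Of 18 genes of the mTOR control of such mRNAs, 4 were higher and 4 lower (44.4% called), and the median was -0.28. Beside this list and the next 2 stand 14.5% of all measured genes called. At a mean of at least 1000, where 10 of the 18 genes lie, that share was 27.1%. The lists were short and were not tested against these shares. Higher were the kinase Mtor at 0.42, its complex partners Rptor at 0.43 and Akt1s1 at 0.53, and its inhibitor Tsc2 at 0.57. Their DESeq adjusted p-values were 0.0259, 0.0380, 0.00524 and 0.00289 per the authors' deposited table. Lower were Pdcd4, an inhibitor of initiation, at -0.82, Larp1b, a relative of Larp1, at -0.86, Cnbp, which binds such mRNAs, at -0.69, and Rps6kb1. The first 3 had DESeq adjusted p-values of 0.000469, 0.00425 and 0.0136 per the authors' deposited table. Of the 9 S6 kinase genes, which share Rps6kb1 and Rps6kb2 with the mTOR list, 1 was higher and 2 lower in females (33.3% called). Rps6kb1, which encodes the main kinase of the Rps6 protein, went from 1755 to 942 (log2 fold change -0.90, DESeq adjusted p 0.00813) per the authors' deposited table. Rps6ka3 was lower at -0.66 and Rps6ka4 higher at 0.57, with DESeq adjusted p-values of 0.0144 and 0.0368 per the authors' deposited table. Of 8 transcription factors of ribosomal protein promoters (25% called), Myc was higher at 0.43 and Gabpa lower at -0.78 (DESeq adjusted p 0.0332 and 0.00496 per the authors' deposited table).

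**Figure D5:**
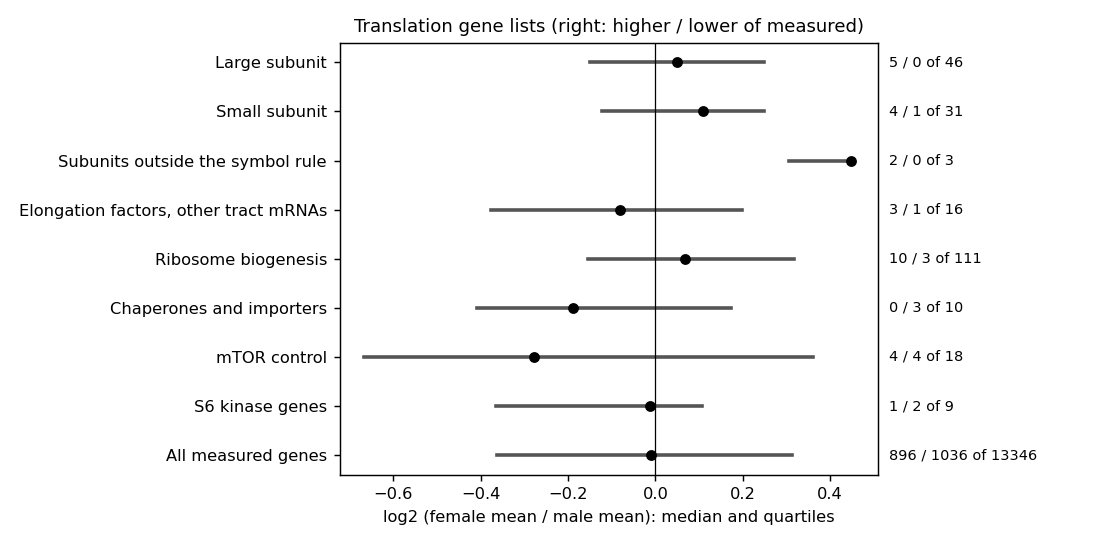
Median log2 fold change (female over male; point) and quartiles (bar) of the ribosomal protein subunits, related gene lists and all measured genes, with the counts called higher and lower at the right. Both subunits have medians near 0, at 0.05 and 0.11, and a narrower quartile range than all genes.

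Markers of other cells were called in the fibroblast and endothelial lists and in no other list of such cells. All 10 myocyte markers were abundant, with means of at least 104067 normalized counts, and 2, Myh6 and Ryr2, were higher in females. Fibroblast markers summed to 18046 normalized counts in males and 8936 in females, with 3 of 6 called lower and 0 higher. Of 6 endothelial markers, 2 were called higher, with sums of 14948 and 15826. The shares called were thus 20% of the myocyte, 50% of the fibroblast and 33.3% of the endothelial markers. Over all measured genes the share was 14.5%, and at a mean of at least 1000 it was 27.1%. Such means were reached by all 10 myocyte, 2 fibroblast and 5 endothelial markers. These short lists were not tested against the shares. The 7 macrophage and leukocyte markers summed to 569 and 443, the 5 smooth muscle and pericyte markers to 4502 and 4247, and the 2 measured erythroid markers to 78.3 and 117. The 3 atrial markers summed to 361 and 2638, mainly through Myl7, and none of the last 4 lists had a called gene by DESeq. Without adjustment, 1 of their genes had a p under 0.05, in the smooth muscle list. In such bulk samples, fewer cells of a type and less RNA per cell cannot be told apart. Their part in the fold changes of ribosomal protein genes was not tested.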

How the data were processed

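RNA-seq of 6 male and 5 female libraries was read from a single table of 17257 genes. The submitters' processing notes name, for the build rn6, DESeq, HTSeq 0.6.1, TopHat2 2.0.12, Trimmomatic 0.32 and FastQC. The annotation and whether counting used strand are not given in the sources used here. Per the file headers, the authors gave a mean normalized signal (counts divided by size factors) over all libraries and per group. The authors also gave its linear fold change as a ratio, the log2 of it, and a deposited p-value with its adjusted value. The groups are named A and B. With A weighted by 6 and B by 5 of 11 libraries, the overall mean was returned in 13346 of 13346 measured genes (relative tolerance 1e-09), and in 0 with the weights exchanged, so A was read as male.

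The members and lists were chosen with earlier results of these data known. The authors' DESeq call at an adjusted p under 0.05 was used. The approximate SE is the log2 fold change divided by the z of the authors' p, given for p under 0.9. Whole reads were searched for male means up to 80 and female means up to 140, and used where 1 solution existed, which held for 4255 of 4257 male means and 4888 of 4985 female means. When 300 means per sex were altered by a relative 1e-09 to 2e-09, 1.0% and 1.33% still had one. The search was tested on simulated data. Single genes were compared by exact permutation tests (scipy 1.17.1), and limma 3.58.1 (R 4.3.3) was run on log2 of normalized reads plus 1 with a mean of at least 10. It called 5 of 1901 genes, which is 0.263%.

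Genes were named by a rule: called members, the 10 with the highest mean, the 5 largest and 5 smallest log2 fold changes at a mean of at least 100, paralogue pairs, members with recovered reads and a mean of at least 5, and up to 4 called genes per list. Rpl5, Rpl10, Rpl10a, Rpl18, Rpl22, Rpl23, Rpl36a, Rpl37a-ps1, Rpl39, Rpl7a, Rplp1, Rplp2, Rps2, Rps19, Rps19bp1, Rps27a, Rps28, Eef2k, Mtor, Rptor, Cnbp and the marker genes were named after their values were seen. Some genes that the rule names are not reported here. Promoter sequences and pseudogene symbols came from RefSeq tables of GRCr8. Levels per coding length were not computed, because lengths were not given. Alternatives covered the scaling, the threshold, the adjustment, low means, the pseudocount and each library left out.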

Additional observations from a re-analysis of the deposited data

Results flagged for a closer look

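In 7 of 19 groups of library values looked at, the highest or lowest library lay far from the others by Dixon's criterion, which chance meets in about 1 in 20 groups. That rate does not hold for sparse counts: in 3 of the 7 (Rpl37a-ps1 in females, Rps19 and Rps9 in males) a single library had reads, which meets the criterion by construction, so the 7 are no measure of excess. Male library f held 435 normalized reads of Rps9 where the other 5 males held 0, and female library b held 154 where the next held 5 reads. For Rpl8, female library b was low at 53.4, while the other 4 females lay between 108 and 121. Male library e was high for Rpl39l at 22.0. Male library c held all male reads of Rps19, 3.81 after scaling, and female library b held all reads of Rpl37a-ps1, 1.81 after scaling. Female library b also held the only female read of 164 genes, against 9 to 24 in the other 4 female libraries. It was thus the library apart in 4 of the 7 groups. The calls of the authors' deposited table could not be refitted without it, since that table gives group means.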

How the results depend on the processing

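Of the 10 members called, 2 were called at an adjusted p under 0.01 (2 higher, 0 lower) and 20 under 0.1 (13 higher, 7 lower). Adjusting over genes with a mean of at least 10 or of at least 100 gave 10 higher and 2 lower, and the canonical genes alone gave 9 and 1. Equal sums of rows with a gene symbol gave 4 higher and 7 lower, and equal sums of all rows 23 higher and 0 lower. The latter moved the median log2 fold change from 0.05 to 0.20 for all members and for the large subunit, and from 0.08 to 0.23 for the small subunit. The other alternatives kept the medians between -0.01 and 0.11. The log2 ratio of the members' share of summed means was 0.19 over all rows and -0.026 over rows with a symbol. By exact permutation, 1 of 6 members had a p under 0.05, Rpl8. The limits of the search, a mean of 80 in males and 140 in females, favoured genes higher in females. Rps4y2, at 130 in males and 84.9 in females, could not be tested. By limma, 0 of 3 (mean of at least 10) and 0 of 6 (no filter) passed after adjustment. With each library left out, the exact permutation p of Rpl8 ran from 0.00952 to 0.0381. The mean of the normalized reads of Rpl39l stayed higher in females whichever library was left out. On a log scale Rpl39l changed direction, as did Rps9, whose means were set by 1 or 2 libraries. On log2 of normalized reads plus 1 or plus 0.5, the mean of Rpl39l was lower in females (exact permutation p 0.922 and 0.818) and that of Rps9 higher (0.848 for both), as in limma (adjusted p 0.980 and 0.975 for Rpl39l, 0.932 and 0.906 for Rps9, with and without the filter). Without male library f, Rps9 was also higher in females (exact permutation p 0.444). No paired analysis was possible because the table gives group means without replicate numbers, and the numbers in the labels belong to different animals.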
